A study of Mus musculus with 10 samples.

Results

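The SLC25 family is the largest family of transport proteins in the mitochondrial inner membrane. In whole testes of 10 day old SCARKO mice, 2 of its 29 measured genes fell and none rose. Over all measured genes 3.52% were called lower and 2.17% higher, so this count is near the background. The genes that fell were Slc25a5, which encodes the ADP/ATP translocase ANT2, and Slc25a45, an amino acid carrier. With no filter on dim signals only Slc25a45 was called. The members were all probe sets whose platform annotation names exactly 1 gene with a symbol starting with Slc25a. They comprised 65 probe sets of 33 genes, out of 20380 probe sets of 12393 genes that name 1 gene. In SCARKO mice the Sertoli cells, the somatic cells that nurse the germ cells inside the seminiferous tubule, have lost their response to androgen; the labels call the loss selective for these cells. AMH-Cre, a transgene that the labels give for the Control mice, is a construct in which the promoter of a Sertoli cell hormone gene drives the recombinase. There were 5 SCARKO pools and 5 Control pools. By the protocol text, given for pairs 1 to 4 only, each pool held 1 testis from each of 3 mice of 1 litter. In these pairs SCARKO and Control pools of the same litter share a pair number. Pair 5 was matched by its number in the titles, and the same make-up was assumed for it. Genotypes were taken from the sample titles; the free-text descriptions name the opposite genotype for pairs 1 to 4 and the same for pair 5. In pair 5, where both labels match, the log2 ratio of SCARKO over Control was -0.59 for Slc25a5 and -0.62 for Slc25a45, the same direction as in the other 4 pairs grouped by title. Both genes were picked from a fit by title that includes pair 5, so this is no test of which labels are right. Each pool was hybridised to 1 Affymetrix array, whose deposited signal is a linear intensity, and precision is limited by the 10 arrays rather than by a read depth.

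SLC25 carriers are encoded in the nucleus, made in the cytosol and inserted into the inner membrane, where each exchanges or carries a narrow set of solutes. They let ADP and phosphate reach the ATP synthase, pass reducing equivalents and carbon skeletons between cytosol and matrix, and supply amino acids, cofactors and iron to enzymes of the matrix. In the testis, Sertoli cells rely largely on glycolysis and feed lactate to germ cells, and germ cells shift towards mitochondrial metabolism as they enter meiosis. At day 10 the tubules hold Sertoli cells, spermatogonia and the first cells in meiotic prophase.

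The promoters of the 4 genes on which the results turn are shown with the letters of 6 common promoter motifs in capitals, so that the genes that fell can be set beside their closest relative and beside the next carrier in order. Each window runs from 250 bases before to 50 bases after the annotated start, read 5′ to 3′ on the strand of the gene, from RefSeq tables of the mouse assembly GRCm38.p6.
Slc25a5 + strand, chrX:36795347-36795646: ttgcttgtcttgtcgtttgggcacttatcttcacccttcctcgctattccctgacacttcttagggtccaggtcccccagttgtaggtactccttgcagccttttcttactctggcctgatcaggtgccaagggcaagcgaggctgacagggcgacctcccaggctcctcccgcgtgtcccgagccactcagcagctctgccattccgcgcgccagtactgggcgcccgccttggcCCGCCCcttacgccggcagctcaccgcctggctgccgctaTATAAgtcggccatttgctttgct
Slc25a4 − strand, chr8:46211013-46211312: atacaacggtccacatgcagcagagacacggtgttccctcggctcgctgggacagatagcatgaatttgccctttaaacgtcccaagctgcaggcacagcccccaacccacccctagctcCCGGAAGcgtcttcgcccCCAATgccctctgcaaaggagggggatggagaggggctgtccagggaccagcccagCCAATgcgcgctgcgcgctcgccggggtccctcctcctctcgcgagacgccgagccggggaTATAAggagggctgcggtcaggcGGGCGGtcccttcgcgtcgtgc
Slc25a45 + strand, chr19:5877572-5877871: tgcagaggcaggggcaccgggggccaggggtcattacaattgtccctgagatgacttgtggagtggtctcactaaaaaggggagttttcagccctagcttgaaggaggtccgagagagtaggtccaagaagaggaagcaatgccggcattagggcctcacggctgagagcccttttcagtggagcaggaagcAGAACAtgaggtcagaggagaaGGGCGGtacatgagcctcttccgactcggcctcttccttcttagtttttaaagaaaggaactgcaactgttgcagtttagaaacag
Slc25a10 + strand, chr11:120491587-120491886: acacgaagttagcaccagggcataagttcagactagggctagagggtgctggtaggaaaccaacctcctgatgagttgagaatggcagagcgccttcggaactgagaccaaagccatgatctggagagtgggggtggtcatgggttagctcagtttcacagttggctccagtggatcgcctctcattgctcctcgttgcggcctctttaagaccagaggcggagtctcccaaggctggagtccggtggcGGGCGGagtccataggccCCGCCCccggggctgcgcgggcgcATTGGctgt
Each motif was searched on both strands. The core of the TATA box was searched as TATAA, and the CCAAT box by the letters in its name. For the GC box, the site of SP1-type factors, the letters were GGGCGG. Only a part of the androgen response element, AGAACA, was searched, so a match to it is not a complete element. The ETS core, bound among others by GABP, was searched as CCGGAAG. For NRF1, a regulator of mitochondrial genes, a match was GCGCA, then any base, then GCGC. No matches overlap in these 4 windows. The Slc25a5 window held a GC box and TATAA, and the Slc25a4 window held both of these with 2 CCAAT boxes and an ETS core. TATAA lay after the annotated start, at position 27 in Slc25a5 and at position 6 in Slc25a4. Neither match is therefore taken as a TATA box of that start. The GC box of Slc25a4 also lay after the start, at position 29. The Slc25a45 window held AGAACA and a GC box, and the Slc25a10 window held 2 GC boxes and a CCAAT box. The 26 Slc25a genes with a window had 35 windows, and a gene was counted if any of its windows held a match. The GC box was present for 24 genes and the CCAAT box for 16. By window these were 32 and 19 of 35, against 35.7% and 37.4% of all 32851 windows. For the motifs that follow, as many Slc25a windows as genes held a match. AGAACA was present for 2 of the 26 genes, Slc25a45 and Slc25a17, against 19.0% of all windows. TATAA occurred for 3 genes, Slc25a4, Slc25a5 and Slc25a15, against 24.9% of windows, the ETS core for 6 against 8.86%, and the NRF1 core for Slc25a3 alone against 4.6%. The median GC content was 59.7% in the Slc25a windows and 52.7% in all windows. A match to letters is a description of the sequence and shows no binding.

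Signals were compared on the log2 scale, and each log2 fold change is SCARKO minus Control, with its standard error (SE) from a limma fit that keeps the pair as a block, over the 13576 probe sets whose mean log2 signal was above the lowest 40%. A probe set was called at a Benjamini-Hochberg adjusted p under 0.05 over all of these. Of the 65 Slc25a probe sets, 51 passed this filter and represented 29 genes. The other 14 had signals of 0.2 to 22.4, and Slc25a2, Slc25a47, Slc25a48 and Slc25a53 had no other probe set, so nothing is concluded about them. By probe set, 10 fell and 0 rose in the limma test, against 3.26% called lower and 1.93% called higher (5.19% in all) of the probe sets tested. These 10 lie in 3 genes, 8 of them in Slc25a5, and probe sets of 1 gene are not separate observations. At an unadjusted p under 0.05 in limma there were 21 Slc25a probe sets, 3 of them higher in SCARKO. The 21 include the same 8 of Slc25a5, and the share over all probe sets is not given here. Nothing is read from this count, and the count by gene stands beside that of all genes below.

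Counted by gene, each through its brightest kept probe set, 2 of 29 Slc25a genes fell and 0 rose, against 281 of 7973 genes (3.52%) called lower and 173 (2.17%) called higher, 5.69% in all. At an unadjusted p under 0.05 there were 9 of 29, of which 6 were lower and 3 higher in SCARKO, beside 1729 of all 7973 genes. With so few genes the count of called carriers is near the background and says nothing particular about the family. The log2 fold change was negative for 16 genes and positive for 12, beside 3590 negative and 4382 positive of all genes, with a median of -0.05, beside 0.02 over all genes. The median size of the log2 fold change, whatever its sign, was 0.10 for the carriers and 0.08 for all genes. All 5 SCARKO signals lay below all 5 Control signals for 4 carriers, Slc25a5, Slc25a45, Slc25a10 and Slc25a36, against 2.78% of all genes, and the reverse held for 0 carriers, against 2.47%. Among 105 other measured solute carrier genes 7.62% were called lower and 3.81% higher, and the difference from the SLC25 family was not tested.

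**Figure D1:**
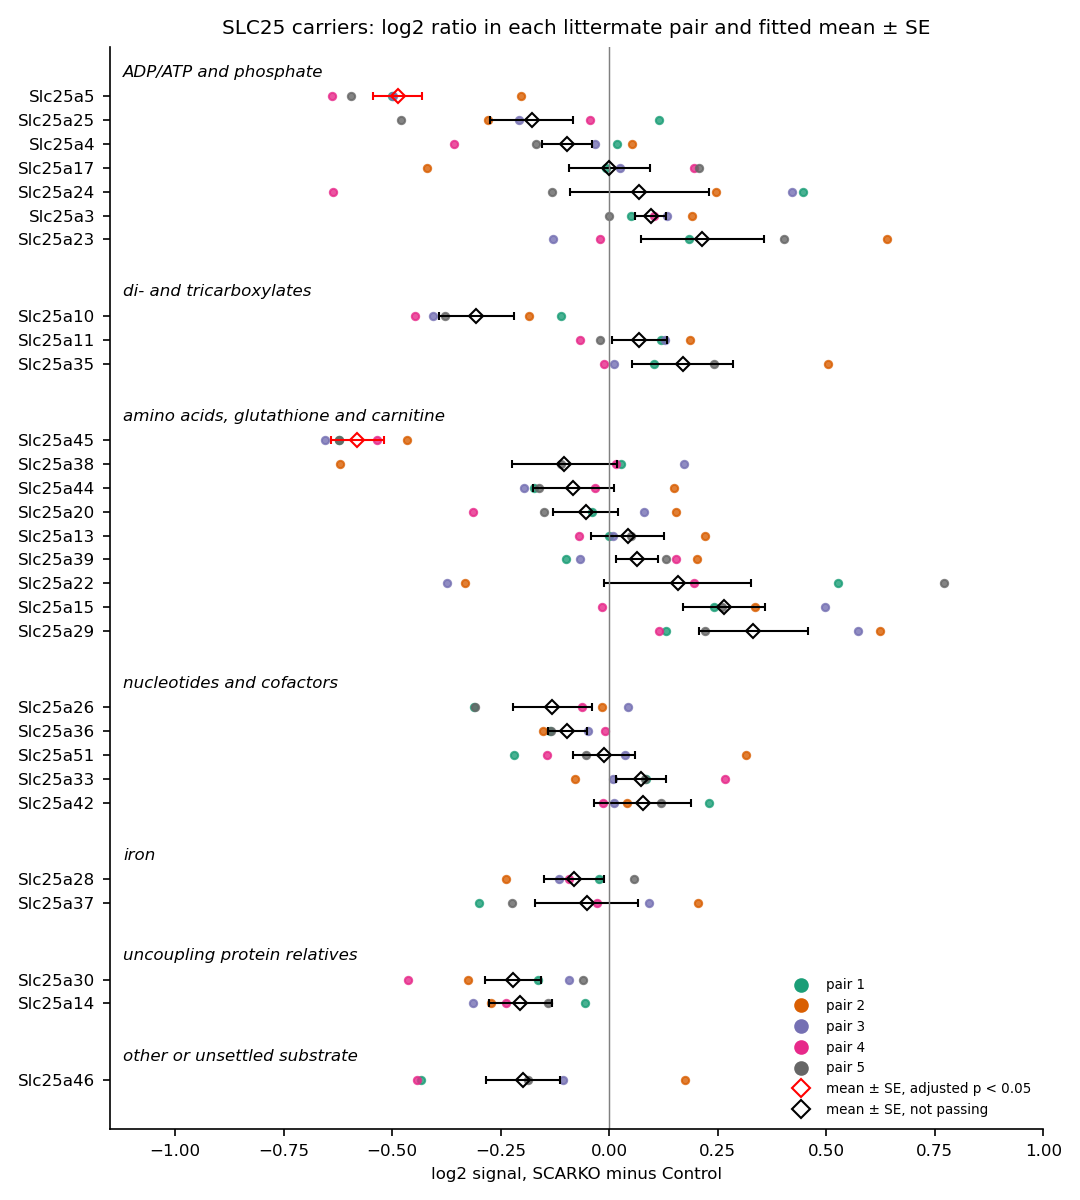
Log2 ratio of SCARKO over Control within each numbered pair (x axis, log2 units) for the 29 measured Slc25a genes (rows), each by its brightest kept probe set, coloured by pair, with the fitted mean ± SE as a diamond (red where called). Slc25a45 and Slc25a5 lie left of zero in all 5 pairs, while most other carriers scatter around zero.

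Slc25a5 had more probe sets than any other carrier, and all of them fell. It is X-linked and encodes ANT2, the ADP/ATP translocase of growing and dividing cells, which brings ADP into the matrix in exchange for ATP. Its brightest probe set gave signals of 645.7, 653.8, 654.7, 594.9 and 629.5 in SCARKO pools 1 to 5, against 912.9, 753.0, 924.0, 926.8 and 950.4 in Control pools 1 to 5. Every SCARKO pool lay below every Control pool, and Control pool 2 stood below the other Controls. The means were 636 ± 24.96 in SCARKO and 893 ± 79.7 in Control (SD, n = 5 each), or -0.49 on the log2 scale (adjusted p = 0.000917, SE 0.06), a 1.40-fold lower signal. Fitted with no filter on dim signals, the adjusted p was 0.0697, and the cause was not tested. In bulk tissue, fewer cells of a type and less RNA per cell cannot be told apart.

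All 8 Slc25a5 probe sets were called lower, and each was lower in SCARKO in all 5 pairs. Their log2 fold changes ran from -0.60 to -0.39, with adjusted p-values from 0.000629 to 0.0109. The 5 SCARKO signals lay wholly below the 5 Control signals for 6 of the 8. The other probe sets, 1438360_x_at and 1438922_x_at, overlapped between groups, since SCARKO pool 2 lay above Control pool 1 (173.5 and 153.2 for the first, 103.2 and 90.1 for the second), yet within every pair SCARKO was the lower. Pair 2 was nearest to zero for all 8 probe sets, between -0.27 and -0.07 on the log2 scale, while the other pairs ran from -0.88 to -0.32. Probe sets with the suffix x, s or a can share probes with other transcripts, and ANT2 has many processed pseudogenes. The 1 Slc25a5 probe set without such a suffix, 1438545_at, averaged 67.6 ± 3.37 in SCARKO and 95.4 ± 10.4 in Control (SD, n = 5 each), or -0.49 on the log2 scale (adjusted p = 0.0054, SE 0.08). Its signals were 69.2, 69.3, 70.5, 62.0 and 67.1 in SCARKO pools 1 to 5, against 98.0, 81.2, 108.8, 99.4 and 89.8 in Control pools 1 to 5, again without overlap.

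**Figure D2:**
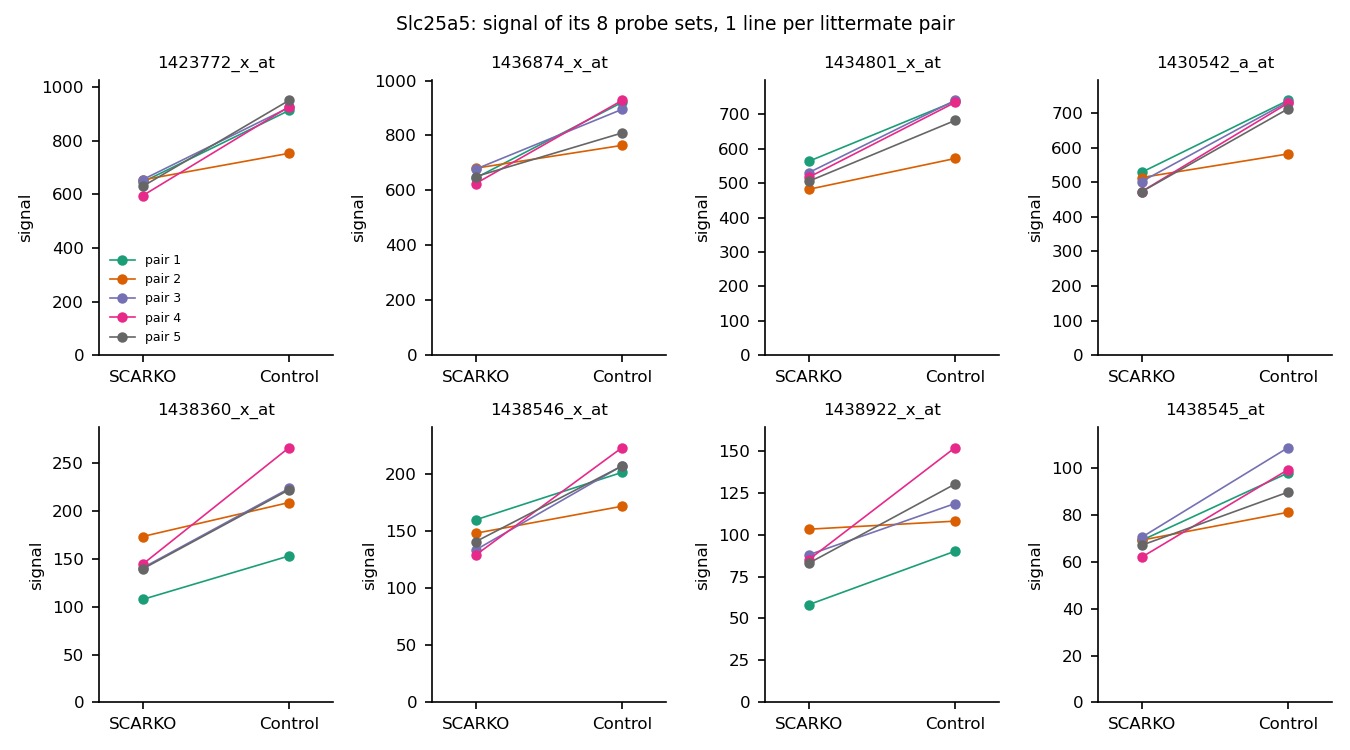
Signal (y axis, linear, from 0) of the 8 Slc25a5 probe sets, 1 panel each, in SCARKO (left) and Control pools (right), 1 point per pool with same-numbered pools joined. Every line runs higher on the Control side, and 6 of the 8 probe sets have no overlap between groups.

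Slc25a4 encodes ANT1, the ADP/ATP translocase best known from heart and skeletal muscle, and performs the same exchange. Signals of its brightest probe set were 577.2, 600.1, 582.0, 468.3 and 576.0 in SCARKO pools 1 to 5, against 570.3, 578.5, 595.8, 599.8 and 647.2 in Control pools 1 to 5. The groups overlapped and the lowest pool was SCARKO pool 4. The log2 fold change was -0.10 (SE 0.06, adjusted p = 0.370), with a 95% interval of -0.22 to 0.03. Its other kept probe sets gave 0.00 (adjusted p = 0.980) and -0.18 (adjusted p = 0.0824).

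Within pairs, with each gene by its brightest probe set, the log2 ratio of Slc25a5 minus that of Slc25a4 was -0.52, -0.26, -0.46, -0.28 and -0.43 in pairs 1 to 5. By these probe sets Slc25a5 was the more reduced translocase in every pair, with a mean difference of -0.39 ± 0.11 on the log2 scale (SD, n = 5 pairs). The order in pair 2 depends on the probe set. There Slc25a4 1434897_a_at gave -0.15, against -0.07 for Slc25a5 1438922_x_at, while all other Slc25a5 probe sets were lower than -0.15. The exact sign-flip permutation test, taken on both sides, gave p = 0.0625, the smallest value this test can give with 5 pairs, so the test itself cannot go below 0.05. It compares changes and says nothing of which translocase is the more abundant, since signals of different probe sets are not on a common scale. The germ cell translocase Slc25a31 is not analysed here.

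**Figure D3:**
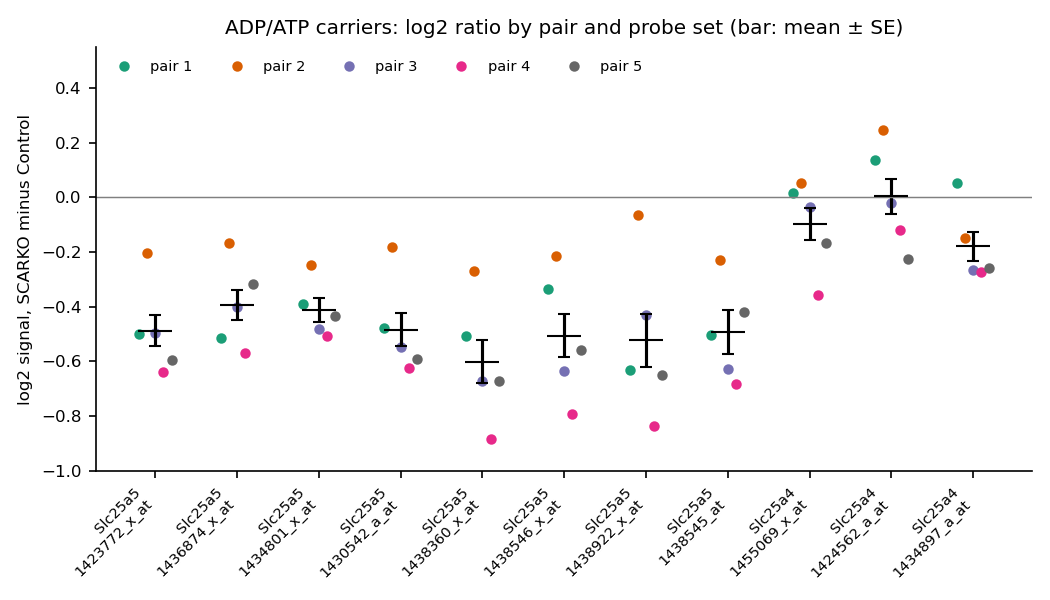
Log2 ratio of SCARKO over Control (y axis) in each of the 5 numbered pairs (coloured points) for the 8 Slc25a5 and 3 kept Slc25a4 probe sets, with the fitted mean ± SE in black. All Slc25a5 points lie below zero, while points of each Slc25a4 probe set fall on both sides of it.

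The remaining carriers of adenine nucleotides and phosphate did not pass the test. Slc25a3, the phosphate carrier that feeds ATP synthase, had signals of 1487, 1424, 1454, 1403 and 1222 in SCARKO pools, against 1437, 1248, 1325, 1307 and 1222 in Control pools. The groups overlapped, and SCARKO was higher in 4 of 5 pairs, with or 0.10 on the log2 scale (adjusted p = 0.160, SE 0.04). Slc25a25, a calcium-regulated ATP-Mg/phosphate carrier, gave 57.6, 49.1, 56.2, 45.5 and 39.9 in SCARKO pools, against 53.2, 59.6, 64.9, 46.9 and 55.6 in Control pools. Its groups also overlapped, at -0.18 (SE 0.10, adjusted p = 0.322). The related Slc25a23 and Slc25a24 gave 0.21 (adjusted p = 0.426) and 0.07 (adjusted p = 0.850), both at dim signals. Slc25a17, the carrier of cofactors and adenine nucleotides in the peroxisome membrane, gave 0.00 (SE 0.09).

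Slc25a45 showed the firmest single change among carriers of amino acids. It lies on chromosome 19 and has been reported to bring methylated amino acids into the matrix for carnitine synthesis. Its signals were 95.1, 80.6, 97.1, 98.2 and 81.1 in SCARKO pools 1 to 5, against 146.5, 111.3, 152.9, 142.3 and 124.8 in Control pools 1 to 5. No SCARKO pool reached the lowest Control pool. The means were 90.4 ± 8.81 in SCARKO and 136 ± 17.1 in Control (SD, n = 5 each), or -0.58 on the log2 scale (adjusted p = 0.000438, SE 0.06), a 1.495-fold lower signal. A single probe set, without a cross-hybridisation suffix, measures this gene.

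Among the other 8 measured carriers of amino acids, glutathione and carnitine, none was called, and 3 of the 9 in this class had an unadjusted p under 0.05. Slc25a15, which exchanges ornithine and citrulline, gave 46.6, 50.6, 46.7, 44.9 and 53.2 in SCARKO pools, against 39.4, 40.1, 33.1, 45.4 and 44.4 in Control pools. SCARKO was higher in 4 of 5 pairs, and the log2 fold change of 0.26 (SE 0.09) missed the threshold (adjusted p = 0.140). Slc25a29, a carrier of basic amino acids, gave 30.2, 28.5, 28.7, 24.9 and 24.7 in SCARKO pools, against 27.6, 18.5, 19.3, 23.0 and 21.2 in Control pools. It was the only measured carrier higher in SCARKO in 5 of 5 pairs, but the groups overlapped and 0.33 (SE 0.12, adjusted p = 0.156) did not pass. Its second kept probe set gave 0.15 (adjusted p = 0.644).

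The aspartate-glutamate carrier Slc25a13 (citrin) gave 0.04, the glutamate carrier Slc25a22 gave 0.16 and the glycine carrier of haem synthesis Slc25a38 gave -0.10 on the log2 scale. For Slc25a20, which exchanges carnitine and acylcarnitines, the value was -0.05 (adjusted p = 0.730), with a second probe set at 0.03. The glutathione carrier Slc25a39 gave 0.06. The branched-chain amino acid carrier Slc25a44 gave -0.08, and its second kept probe set gave -0.20 (adjusted p = 0.309), lower in SCARKO in 5 of 5 pairs. None of these 6 carriers passed the test by any kept probe set.

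Slc25a10 was the only measured carrier of di- and tricarboxylates with signals lower in all 5 pairs. It exchanges malate and succinate for phosphate. Its brightest probe set gave 48.3, 43.7, 48.2, 42.0 and 39.1 in SCARKO pools 1 to 5, against 52.2, 49.7, 63.9, 57.3 and 50.8 in Control pools 1 to 5. The groups did not overlap, but the log2 fold change of -0.31 (SE 0.09) missed the threshold (adjusted p = 0.0681). A dimmer probe set, 1416955_at, gave 16.3, 22.0, 11.9, 16 and 17.0 in SCARKO pools, against 36.4, 22.4, 30.1, 25.2 and 30.5 in Control pools. It was called at -0.80 (SE 0.18, adjusted p = 0.0238), and it passed the filter on dim signals only through the Control pools, so that call is not independent of the filter. The call was lost without pair 1, 3, 4 or 5 (adjusted p = 0.0903, 0.102, 0.052 and 0.0739), with no filter (0.177) and with no intensity trend (0.0634). The mean of both probe sets gave -0.56 (adjusted p = 0.0169), a value that includes the probe set kept only through the Control pools and so carries the same limit. The oxoglutarate/malate carrier Slc25a11, part of the malate-aspartate shuttle, gave 0.07 (adjusted p = 0.581), and Slc25a35 gave 0.17 (adjusted p = 0.450).

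**Figure D4:**
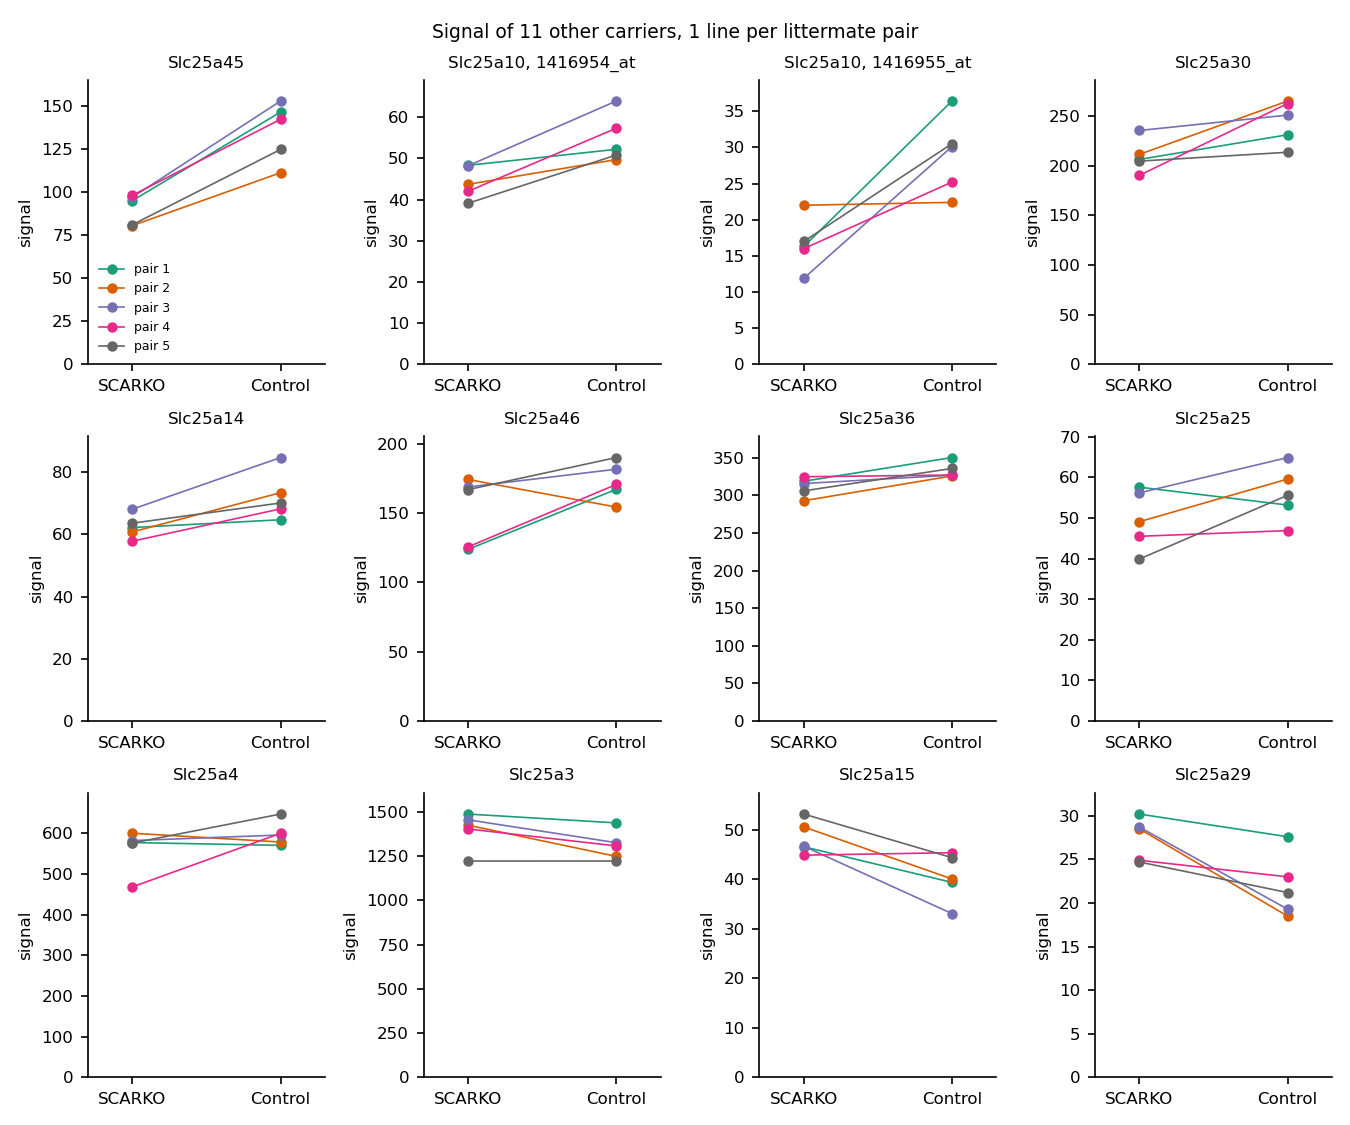
Signal (y axis, linear, from 0) in SCARKO pools (left) and Control pools (right) for the other 11 carriers given pool by pool, 1 point per pool with same-numbered pools joined and both Slc25a10 probe sets shown. The groups are separate for Slc25a45, Slc25a10 and Slc25a36 and overlap for the others.

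Both measured relatives of the uncoupling proteins were lower in every pair, and neither was called. Slc25a30 gave 206.2, 211.3, 235.3, 190.2 and 204.5 in SCARKO pools, against 231.0, 264.9, 250.8, 262.4 and 213.4 in Control pools. Its log2 fold change was -0.22 (SE 0.06, adjusted p = 0.0763), and its 4 kept probe sets lay between -0.25 and -0.20. The X-linked Slc25a14 gave 62.2, 60.8, 68.1, 57.8 and 63.6 in SCARKO pools, against 64.7, 73.4, 84.7, 68.2 and 70.1 in Control pools. The groups overlapped through Control pool 1, and the log2 fold change was -0.20 (SE 0.07, adjusted p = 0.141).

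Carriers of nucleotides and cofactors moved little. Slc25a36, a pyrimidine nucleotide carrier, gave 318.7, 292.8, 315.7, 324.7 and 305.9 in SCARKO pools, against 350.2, 325.7, 326.8, 327.0 and 335.7 in Control pools. The groups did not overlap, by a narrow margin, and the log2 fold change was -0.10 (SE 0.05, adjusted p = 0.253). Its relative Slc25a33 gave 0.07, the S-adenosylmethionine carrier Slc25a26 gave -0.13, the coenzyme A carrier Slc25a42 gave 0.08 and the NAD carrier Slc25a51 gave -0.01. The iron carriers Slc25a28 and Slc25a37 (the mitoferrins) gave -0.08 and -0.05.

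Slc25a46 stands apart as a protein of the outer membrane involved in mitochondrial shape. Its signals were 123.7, 174.1, 168.7, 125.5 and 166.8 in SCARKO pools, against 167.0, 154.2, 181.5, 170.5 and 189.9 in Control pools. SCARKO was lower in 4 of 5 pairs and higher in pair 2, and the log2 fold change was -0.20 (SE 0.09, adjusted p = 0.210). Without pair 2 it was -0.29 and passed (adjusted p = 0.0483).

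For the 27 measured carriers that were not called, the log2 fold change ran from -0.31 to 0.33. It was smaller than 0.1 in size for 15 of them, and its 95% interval stayed within 0.5 of zero on the log2 scale for 24. Of the 12 genes with several kept probe sets, 4 had probe sets of opposite sign. The 4 genes under the filter gave no test. The brightest of them by mean log2 signal, the X-linked Slc25a53, had 15.7, 11.8, 10.7, 12.8 and 9.4 in SCARKO pools. Its Control pools had 17.5, 12.3, 21.0, 18.1 and 22.4, and the signals were mostly under the filter's 19.3. Of all 269 measured X-linked genes 9.67% were called lower and 2.97% higher, and among the measured carriers 2 were X-linked, of which Slc25a5 fell and Slc25a14 did not pass.

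Genes that work beside the carriers were counted in the same fit. Of 18 measured genes of mitochondrial protein import, only some of which deliver carriers to the inner membrane, 1 fell, 0 rose and 17 did not pass. Their median was -0.00 and 4 had an unadjusted p under 0.05. The gene that fell was Timm10, a small chaperone that escorts carrier precursors through the intermembrane space. It averaged 195 ± 5.18 in SCARKO and 233 ± 5.21 in Control (SD, n = 5 each), or -0.26 on the log2 scale (adjusted p = 0.0105, SE 0.05), which missed the threshold without pair 5 (-0.25, adjusted p = 0.0509). Timm50, a receptor of the inner membrane translocase, gave 0.22 (adjusted p = 0.111), and passed without pair 1 (0.30, adjusted p = 0.0373). Among 16 ATP synthase subunits, which use the ADP and phosphate that Slc25a5 and Slc25a3 bring in, 0 were called in limma and 3 had an unadjusted p under 0.05. Their median was 0.05, and the subunit nearest the threshold, Atp5l, gave 0.14 (SE 0.04, adjusted p = 0.0638).

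The enzymes of the malate-aspartate shuttle and citrate export held 8 measured genes, of which 1 fell, 1 rose and 6 did not pass, with a median of 0.00. Mdh1, the cytosolic malate dehydrogenase, averaged 677 ± 85.7 in SCARKO and 803 ± 89.6 in Control (SD, n = 5 each), at -0.25 (SE 0.04, adjusted p = 0.00438). Its other probe sets gave -0.07 and -0.04, the call was lost without the pair block (adjusted p = 0.192), and the mean over its probe sets was -0.12 (adjusted p = 0.154). Me1, the cytosolic malic enzyme that makes NADPH, averaged 892 ± 47.2 in SCARKO and 772 ± 38.6 in Control (SD, n = 5 each), at 0.21 (SE 0.04, adjusted p = 0.0184), a call lost without pair 4 or 5 (adjusted p = 0.0538 and 0.0637). Acly, which cleaves exported citrate, gave 0.09 (adjusted p = 0.196).

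Of 5 measured enzymes of the urea cycle, ornithine and glutamate, 1 fell, 0 rose and 4 did not pass, with a median of -0.03. Nags, which makes N-acetylglutamate in the matrix, averaged 13.4 ± 2.61 in SCARKO and 32.8 ± 6.59 in Control (SD, n = 5 each), at -1.30 (SE 0.15, adjusted p = 0.00106). Its SCARKO signals of 9.1 to 15.6 lay under the filter's 19.3, so it too passed the filter through the Control pools alone, which had 25.5 to 39.4, and with no filter the call was lost (adjusted p = 0.0673). Asl, argininosuccinate lyase, gave 0.22 (adjusted p = 0.087). Among 6 genes of carnitine synthesis and the carnitine shuttle, to which Slc25a45 and Slc25a20 are linked, none passed in limma and none had an unadjusted p under 0.05 (0 and 0), and the median was 0.04. Cpt1a, which makes acylcarnitines at the outer membrane, gave -0.10 (adjusted p = 0.283).

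The remaining lists had no called gene in limma. Of 8 genes of mitochondrial iron, haem and iron-sulphur enzymes 1 had an unadjusted p under 0.05 (median -0.07; Iscu, the cluster scaffold, -0.14). Of 8 regulators of mitochondrial biogenesis there were 2 (median -0.04; the transcription factor of mitochondrial DNA Tfb2m, -0.16). Of 11 other mitochondrial transporters and channels there were 4 (median -0.06; the outer membrane channel Vdac3, 0.11, adjusted p = 0.084). Mtch1 and Mtch2, SLC25 relatives of the outer membrane with other symbols, gave -0.09 and 0.10, and 0 of them had an unadjusted p under 0.05.

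**Figure D5:**
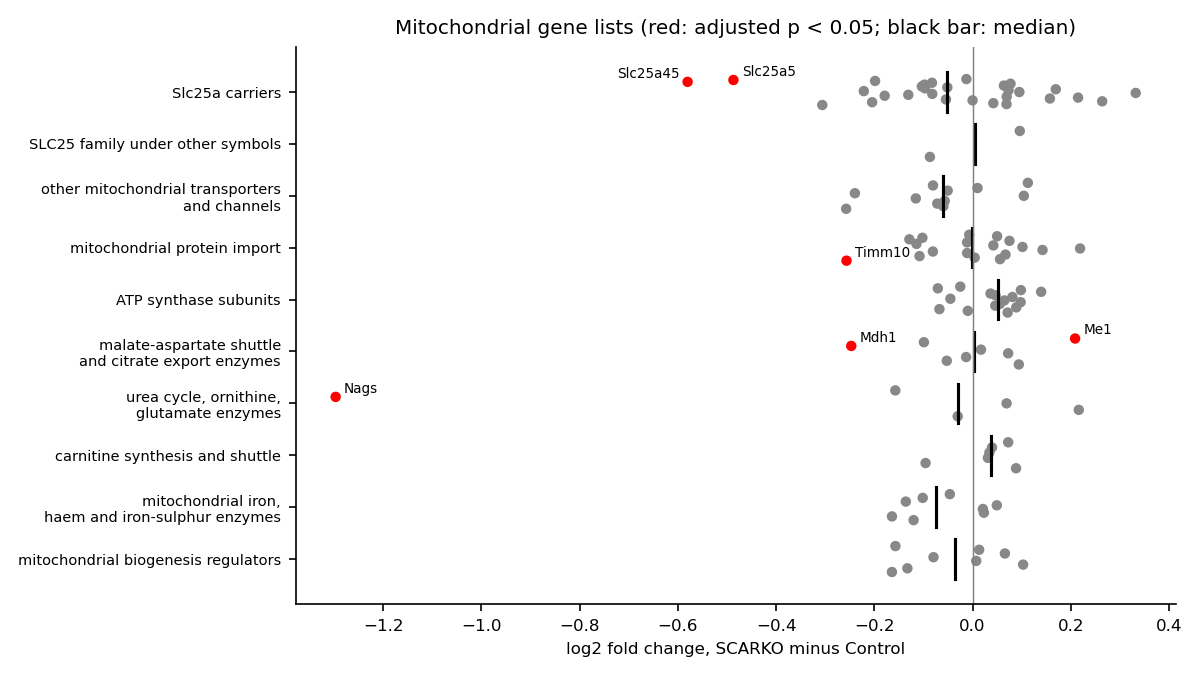
Log2 fold change, SCARKO minus Control, of each measured gene (points, x axis) in the carrier family and the lists of mitochondrial genes (rows), with called genes in red and the median of each list as a black bar. Medians lie between -0.07 and 0.05, and the called genes are Slc25a5, Slc25a45, Timm10, Mdh1, Me1 and Nags.

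Cell markers and signs of RNA quality stood as follows beside these results, and their part in the falls of Slc25a5 and Slc25a45 was not tested. Sertoli cell markers were abundant, as the labelled tissue requires, and 13 of the 14 listed were measured. The other, Trf, was matched by a synonym to a different gene, Trh, which lay under the filter, so Trf was not assessed. Summed signals of the 13 were 8690 to 8858 in SCARKO pools and 8707 to 9173 in Control pools. Of the 13, 1 fell (Cldn11) and 2 rose (Kitl and Fshr), with 7 at an unadjusted p under 0.05. Of 10 measured meiotic prophase markers 3 fell (Stag3, Hspa2 and Tex15), 7 had an unadjusted p under 0.05 and 9 were negative (median -0.25), with summed signals of 1766 to 2290 in SCARKO pools and 2092 to 3098 in Control pools. The calls of Kitl, Fshr, Hspa2 and Tex15 were each lost when single pairs were left out, and those of Hspa2 and Tex15 also without the pair block (adjusted p = 0.0855 and 0.185). No spermatogonial, Leydig, peritubular myoid, macrophage or endothelial marker was called by limma (2, 2, 2, 2 and 1 at an unadjusted p under 0.05). Some of these lists were nonetheless 1-sided. All 8 measured spermatogonial markers were positive (median 0.13), as were 7 of 8 macrophage markers (0.10), and 6 of 7 myoid markers were negative (-0.12). Leydig markers were 3 negative and 4 positive (0.05), and endothelial markers 4 negative and 3 positive (-0.01). Summed signals overlapped between groups for all of these, as they did for the meiotic and Sertoli cell markers. Spermatogonial sums were 3211 to 3573 in SCARKO pools and 2977 to 3476 in Control pools. Summed Leydig markers were 1116 to 1439 in SCARKO pools and 1051 to 1338 in Control pools, and myoid markers 2547 to 2972 in SCARKO pools and 2880 to 3263 in Control pools. Macrophage sums were 521 to 636 in SCARKO pools and 458 to 615 in Control pools, and endothelial sums 256 to 305 in SCARKO pools and 236 to 297 in Control pools. Both erythroid markers on the array lay under the filter, and of 4 fat and epididymis markers only Lpl was measured and rose, at 0.51. The ratio of 3′ to 5′ signal was 0.618 to 0.657 in SCARKO pools and 0.611 to 0.64 in Control pools for Gapdh, and 1.16 to 1.32 in SCARKO pools and 1.21 to 1.3 in Control pools for actin.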

How the data were processed

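RNA of 10 testis pools was measured on 10 Affymetrix arrays. The deposited values were signal intensities on a linear scale for 22690 probe sets, made by the authors with MAS5 per the submitters' processing notes for 8 arrays. No tool was named for the arrays of pair 5, and no version of MAS5 is given in the sources used here. After trimming 2% at each end every array averaged 100.028 to 100.029, so all shared 1 scale. Detection calls were not used here. Groups and pair numbers came from the titles; the descriptions give the opposite genotype for pairs 1 to 4 and the same for pair 5. The protocol text on littermate pools is given for pairs 1 to 4. Nothing is reported on the targeted gene, and the labels alone define the groups.

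Probe sets were named from the platform annotation, with symbols updated through gene identifiers to GRCm38.p6 tables: 20380 listed 1 gene, 691 several and 1555 none, besides 64 array controls, and 29 kept an older symbol. Values under 1 were set to 1, log2 was taken, and the lowest 40% by mean log2 (under 4.27, a signal of 19.3) were left out. The 13576 kept probe sets were fitted in limma 3.58.1 (R 4.3.3) on group and pair, with moderated variances that follow intensity; tests were two-sided, p-values were adjusted by Benjamini-Hochberg across them, and the procedure was tested on simulated data. The brightest kept probe set stood for its gene. Same-numbered pools deviated together, with correlations of 0.27, 0.19, 0.19, 0.11 and 0.39 in pairs 1 to 5. Against pools of other numbers the top values were -0.01, 0.08, 0.11, 0.11 and 0.01, so pair 4 did not stand out. The pairing comes from the protocol text for pairs 1 to 4 and from the titles for pair 5. Per-pool values are given for called carriers, Slc25a3, Slc25a4 and Slc25a5, and the 8 other carriers with the smallest unadjusted p; values of Slc25a53 and of dimmer probe sets were chosen after they were seen. Of other lists, called genes and the 1 next by p are named. Members and lists were chosen with earlier results of these data known. Alternatives were no pair block, other filters, another offset before log2, quantile normalization, no trend, groups from the descriptions, each pair left out, the mean of a gene's probe sets and, added after seeing the data, only probe sets without the suffix a, s or x.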

Additional observations from a re-analysis of the deposited data

Results flagged for a closer look

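In each group of 5 pools, the lowest or highest pool of every kept Slc25a probe set was compared with the others by its gap over the group's range; 5 of 102 groups stood out, and chance gives about 1 in 20. Control pool 2 was low for Slc25a5 in 2 probe sets, at 753.0 with the other Controls at 912.9 to 950.4, and at 582.2 with the others at 712.7 to 737.1. SCARKO pool 4 was low for Slc25a4, at 468.3 with the others at 576.0 to 600.1, and without pair 4 its log2 fold change was -0.03. Control pool 1 was low for another Slc25a4 probe set, at 390.3 with the others at 511.9 to 569.7. SCARKO pool 5 was low for a dim Slc25a30 probe set, at 15.9 with the others at 25.8 to 28.9.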

How the results depend on the processing

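Leaving aside the groups from the descriptions, 322 of 334 values of carrier genes under the alternatives kept their direction and their side of the threshold. Dropping the pair block or the trend, or changing the filter, cannot alter a log2 fold change, so direction was fixed in these. In the main fit 27 of the 29 carriers were not called, so most had no call to lose. This count therefore does not measure robustness. Slc25a45 stayed called throughout the alternatives other than the descriptions, with log2 fold changes of -0.61 to -0.56 when a pair was left out. Slc25a5 lost its call only with no filter on dim signals (adjusted p = 0.0697), where Slc25a45 kept an adjusted p of 0.0469; Slc25a46 passed without pair 2, and Slc25a10 by the mean of its probe sets, a mean that includes the probe set kept only through the Control pools. With no filter 1 Slc25a probe set and 1 gene were called lower, in place of 10 and 2, and 31 and 7 probe sets of all were called lower and higher, in place of 442 and 262. Without the pair block 2 carrier genes and 9 probe sets were called (1438922_x_at was lost, adjusted p = 0.0814), and 283 probe sets of all were lower and 121 higher. With no trend these were 212 and 109. The cause of these changes in the counts was not tested. With 1 pair left out 213 to 485 were lower and 91 to 258 higher, the fewest without pair 3. Among probe sets without suffix, 3 of 29 Slc25a probe sets were called, since 7 of the 8 for Slc25a5 carry a suffix and were not tested. The share called over all probe sets without suffix is not given here, so nothing is read from this count. Of the called probe sets without suffix in the main fit, Slc25a10 1416955_at passed the filter only through the Control pools. The difference between the brightest probe sets of Slc25a5 and Slc25a4 ranged from -0.42 to -0.36. Small values changed sign when 1 pair was left out: Slc25a13 ran from -0.0025 to 0.07, Slc25a20 from -0.11 to 0.0109, Slc25a24 from -0.0247 to 0.25, Slc25a37 from -0.12 to 0.011, Slc25a38 from -0.17 to 0.0257 and Slc25a51 from -0.0945 to 0.0391 (0.042 by the mean of its probe sets). With no filter, of the 11 called genes named from other lists only Timm10 stayed called, and with no trend Fshr, Hspa2, Kitl, Mdh1, Me1 and Tex15 lost their calls. For the other lists, the calls of Timm10, Mdh1 and Me1 and the value of Timm50 depended on settings as given above. Groups from the descriptions turn pairs 1 to 4 round and leave pair 5, and called 0 probe sets in either direction. Carrier genes that changed sign there were Slc25a3 -0.0953, Slc25a4 0.0305, Slc25a5 0.25, Slc25a10 0.15, Slc25a11 -0.0777, Slc25a13 -0.0225, Slc25a14 0.15, Slc25a15 -0.16, Slc25a23 -0.054, Slc25a24 -0.12, Slc25a26 0.0073, Slc25a28 0.11, Slc25a29 -0.24, Slc25a30 0.20, Slc25a33 -0.0399, Slc25a35 -0.0728, Slc25a36 0.0431, Slc25a38 0.0585, Slc25a39 -0.0116, Slc25a42 -0.0292, Slc25a44 0.0181, Slc25a45 0.33, Slc25a46 0.12. Called probe sets that did were Slc25a10 1416955_at 0.47, Slc25a5 1430542_a_at 0.25, Slc25a5 1434801_x_at 0.24, Slc25a5 1436874_x_at 0.27, Slc25a5 1438360_x_at 0.33, Slc25a5 1438545_at 0.32, Slc25a5 1438546_x_at 0.28, Slc25a5 1438922_x_at 0.26. Of the other genes, Acly -0.0752, Asl -0.11, Atp5l -0.087, Cldn11 0.33, Cpt1a 0.0187, Fshr -0.33, Hspa2 0.19, Iscu 0.14, Kitl -0.15, Lpl -0.32, Mdh1 0.12, Me1 -0.12, Mtch2 -0.0925, Nags 0.54, Stag3 0.32, Tex15 0.11, Tfb2m 0.0299, Timm10 0.14, Timm50 -0.0947, Vdac3 -0.0669 did.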
